A study of Mus musculus with 22 samples.

Results

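To describe how active chromatin marks the proteasome genes of BcorΔE9-10 myeloid progenitors, the 45 protein-coding genes whose symbols begin with Psma, Psmb, Psmc, Psmd or Psme and a number were selected from the 21853 protein-coding gene models on mouse chromosomes 1 to 19, X and Y, and their promoter peaks were read from 3 peak lists of histone H3 acetylated at lysine 27 (H3K27ac). The libraries, called replicates 1, 2 and 3, form 1 group. They were made by chromatin immunoprecipitation sequencing (ChIP-seq) with an H3K27ac antibody from sorted Lin-cKIT+Sca-1- (KL) bone marrow cells of male C57BL/6 mice that were scl-Cre-ERT + and Bcor fl/y. Every mouse had received 1 mg of tamoxifen per day for 5 days by intraperitoneal injection at an age of 3 to 6 months, and cells were taken 20 weeks later. The Cre is driven from a stem cell promoter, and once tamoxifen has activated it, exons 9 and 10 of Bcor, a gene on the X chromosome, are excised in stem cells and so in their progeny. All 3 libraries carry the deletion, the Cre and the tamoxifen. H3K27ac libraries of BcorWT cells were not part of the data used here, and no value below compares genotypes. Of the 22 samples of the series, 19 were not analysed here.

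The proteasome is the protease that degrades most ubiquitin-tagged proteins in the nucleus and cytosol. Its barrel-shaped core is built from rings of alpha subunits (Psma genes) around rings of beta subunits (Psmb genes), of which Psmb5, Psmb6 and Psmb7 encode the cutting subunits. A regulatory particle of ATPases (Psmc genes) and non-ATPases (Psmd genes) binds, deubiquitinates and unfolds the substrate, and other activators (Psme genes) can cap the core in its place. In immune cells and under interferon, Psmb8, Psmb9 and Psmb10 replace Psmb5, Psmb6 and Psmb7 to form the immunoproteasome, which favours peptides for antigen presentation. Psma8 is known from the testis and Psmb11 from the cortical epithelium of the thymus. H3K27ac is found on nucleosomes that flank active promoters and enhancers.

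The members were divided by role into 7 alpha ring, 7 beta ring, 6 base ATPase and 11 non-ATPase genes, together the 31 constitutive members, and into 3 assembly chaperones, 4 activators, 3 immunoproteasome genes and 2 tissue-specific genes. Psmc3ip, which encodes a recombination factor and no proteasome subunit, and Psme2b, a copy of Psme2, fit the symbol rule but no role. The height of a peak is given as the fold enrichment that the authors' peak caller reported at its summit, a ratio of fragments to the local background within 1 library. In this ratio a count of 1 is added to the fragments and to the background, so the fold lies below their plain ratio. Where several peaks lay within 2.5 kb of an annotated transcription start site (TSS) of a gene, the peak of highest fold was taken.

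Promoter sequences are shown first for the genes on which the height and the class comparisons turn. Psmd14 and Psmd11 are members of high fold and Psmd2 is one of low fold, Psmb5 and Psmb6 are cutting subunits, and Psmb10 is an immunoproteasome gene. Each line gives the RefSeq sequence (GRCm38.p6), 5′ to 3′ on the strand of the gene, from 250 bases before the RefSeq start to the base before it, or to the base before the first exon annotated by GENCODE where that begins earlier. Capitals mark matches, on either strand, to the ETS motif CCGGAAG, to the antioxidant response element TGACNNNGC, which is bound by the factors that raise proteasome genes under stress, or to the CCAAT box.
Psmd14, chr2:61711444-61711693, plus strand: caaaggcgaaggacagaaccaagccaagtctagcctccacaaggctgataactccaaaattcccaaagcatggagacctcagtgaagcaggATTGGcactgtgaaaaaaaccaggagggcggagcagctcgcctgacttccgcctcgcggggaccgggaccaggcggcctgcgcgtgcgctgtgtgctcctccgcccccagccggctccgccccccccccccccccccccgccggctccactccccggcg
Psmd11, chr11:80428365-80428614, plus strand: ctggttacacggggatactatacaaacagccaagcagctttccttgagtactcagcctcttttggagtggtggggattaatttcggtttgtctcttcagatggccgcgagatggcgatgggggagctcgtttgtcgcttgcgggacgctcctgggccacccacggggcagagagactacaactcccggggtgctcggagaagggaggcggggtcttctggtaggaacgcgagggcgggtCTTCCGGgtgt
Psmd2, chr16:20651402-20651651, plus strand: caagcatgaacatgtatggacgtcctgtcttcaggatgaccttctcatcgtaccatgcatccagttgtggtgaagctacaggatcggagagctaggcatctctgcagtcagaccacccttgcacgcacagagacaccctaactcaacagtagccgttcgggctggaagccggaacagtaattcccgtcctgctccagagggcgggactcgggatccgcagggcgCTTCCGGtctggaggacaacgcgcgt
Psmb5, chr14:54618023-54618245, minus strand: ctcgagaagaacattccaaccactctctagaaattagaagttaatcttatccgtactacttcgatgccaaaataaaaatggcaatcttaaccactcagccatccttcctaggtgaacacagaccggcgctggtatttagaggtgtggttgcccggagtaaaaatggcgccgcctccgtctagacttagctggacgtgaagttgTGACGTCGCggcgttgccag
Psmb6, chr11:70525107-70525356, plus strand: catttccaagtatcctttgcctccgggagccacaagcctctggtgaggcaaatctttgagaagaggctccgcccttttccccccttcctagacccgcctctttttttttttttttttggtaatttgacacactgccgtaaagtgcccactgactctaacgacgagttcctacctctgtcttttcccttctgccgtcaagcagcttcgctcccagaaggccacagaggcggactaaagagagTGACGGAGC
Psmb10, chr8:105938445-105938642, minus strand: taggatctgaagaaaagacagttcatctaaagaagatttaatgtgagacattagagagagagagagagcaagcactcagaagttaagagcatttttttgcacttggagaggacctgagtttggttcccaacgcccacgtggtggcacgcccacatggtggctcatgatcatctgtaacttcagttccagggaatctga
In these lines the capitals mark a CCAAT box in Psmd14, an ETS motif in Psmd11 and in Psmd2, and an antioxidant response element in Psmb5 and in Psmb6. None of the searched motifs was in the Psmb10 window.

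The libraries were of like depth, with 18.04, 18.9 and 19.3 M reads estimated from the lists, and held 23410, 25963 and 23758 peaks. The estimate assumes a fragment length of 200 bp and a set genome size. Promoters of all 6 progenitor markers examined (Kit, Gata2, Myb, Runx1, Spi1 and Cebpa) had a TSS peak in all 3 libraries, as did 1 of 4 markers of lineage-positive cells (Cd5) and 0 of 6 markers of other tissues. In bulk chromatin, fewer cells with a marked promoter and less acetylation per cell cannot be told apart. Per the methods of the study, cells came from 3 mice. The labels give each library a replicate number but name no animal, litter or day. The p-values below measure only the spread between these libraries.

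Nearly every member carried the mark. A TSS peak was present in all 3 libraries at 41 of 45 members, where 43.3% of all protein-coding genes had one (9471 of 21853). This included 31 of 31 constitutive members, 4 of 4 activators, 3 of 3 immunoproteasome genes and 2 of 3 assembly chaperones, and 0 of 2 tissue-specific genes. The exceptions were Psmd10, Psma8, Psmb11 and Psme2b. Without Psmc3ip and Psme2b the count was 40. Requiring the peak within 1 kb of the TSS left it at 41, so no member entered through the outer part of the window.

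Psmd10 (ENSMUSG00000031429.14, chrX:140948429-140956728), which encodes the assembly chaperone gankyrin, had a TSS peak in 2 libraries. Its fold was 5.59 in replicate 2 and 7.52 in replicate 3, on 18 fragments (exact Poisson 95% interval 10.7 to 28.4) and 25 fragments (16.2 to 36.9), and in replicate 1 the nearest peak was 414 kb away. The smallest number of fragments at any summit in replicate 1 was 8, so a weaker signal than that of a called peak was not detectable at this depth. Psmd10 is the only member on the X chromosome. Of 948 X-linked genes, 23.9% had a TSS peak in all 3 libraries, against 44.6% of the 20722 autosomal genes, and the part of the single X in male cells was not tested.

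Of the tissue-specific genes, Psma8 (ENSMUSG00000036743.4), the testis counterpart of Psma7, had its nearest peak at 22.6 kb in each library. Psmb11 (ENSMUSG00000072423.5, chr14:54621433-54629556), the thymic counterpart of Psmb5, lay just outside the window. Its nearest peak was 3.02, 3.16 and 3.14 kb from the 5′ end of its GENCODE model. That peak is the promoter peak of Psmb5, its neighbour on chromosome 14. Widening the window to 5 kb therefore gave Psmb11 a peak in every library. The RefSeq promoter of Psmb11, at chr14:54625060-54625359, lies further from that peak. Psme2b was 22.3 to 32.6 kb from any peak. A related group without peaks was the processed pseudogenes: 0 of 4 annotated Psmb5, Psmb6 and Psmb7 pseudogenes had a peak within the window in any library.

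**Figure D1:**
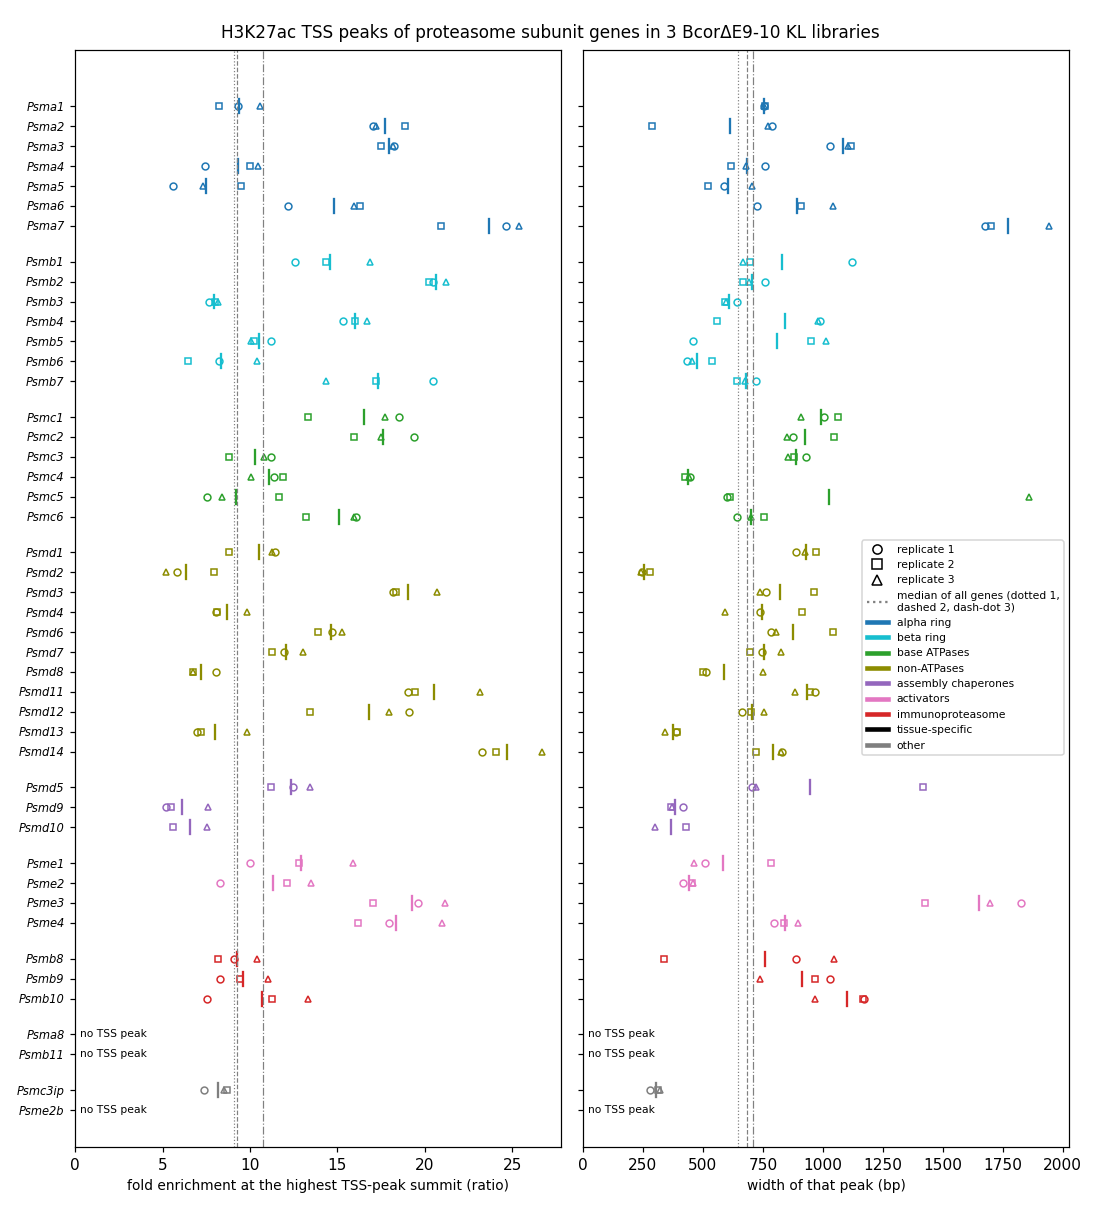
Fold enrichment (left) and width in bp (right) of the TSS peak of each member in the 3 libraries, with 1 symbol per library, a vertical bar for the mean and lines for the median of all protein-coding genes with a TSS peak. Psmd14, Psma7 and Psmb2 have the highest mean fold, Psma7 and Psme3 the widest peaks, and Psma8, Psmb11 and Psme2b have none.

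The member peaks were taller than those of the average marked gene. The median fold of members with a TSS peak was 11.4, 11.8 and 13.4 in replicates 1, 2 and 3, against 9.07, 9.26 and 10.7 over the 9943, 10195 and 10174 protein-coding genes with one. The ratio was 1.26, 1.27 and 1.25, a mean of 1.26 ± 0.0137 (SD, n = 3), and lay above 1 in 3 of 3 libraries (p = 0.25 by a two-sided exact permutation of the signs, which is the lowest p this design permits). Adjusted over the 4 ratios tested the p was also 0.25. These medians cover only members whose peak passed the peak caller. Among genes with a peak in all 3 libraries the ratio was 1.22, 1.21 and 1.18. In replicates 1, 2 and 3, 27, 29 and 26 members lay above the median of all genes, while 4, 5 and 3 were in the top 10% and 0 in the lowest 10% in each library. Of the members, 21 were above the median in all 3 libraries and 8 below it in all 3.

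Widths differed less. The median width of member peaks was 753, 711 and 751.5 bp, against 646, 683 and 707 bp for all genes, a ratio of 1.09 ± 0.0665 (SD, n = 3), above 1 in 3 of 3 libraries (the exact permutation of signs gave p = 0.25, adjusted 0.25). Among genes with a peak in all 3 libraries the width ratio was 1.12, 1.006 and 1.015. The direction turned when the widths of all peaks in the window were summed. Then members had medians of 829, 948.5 and 888 bp against 886, 946 and 970.5 bp, and the mean ratio was 0.951. At 20 members the window held a single peak in every library that had one. At 22 it held more than 1 peak in at least 1 library, and at 10 in every library with a peak.

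Within the core, the alpha ring ran from 7.47 (Psma5) to 23.6 (Psma7) in mean fold. Psma7 (ENSMUSG00000027566.15, chr2:180036374-180042433), an alpha subunit, had folds of 24.7, 20.9 and 25.4 on 73, 63 and 79 fragments. Its peak, at 1674, 1701 and 1941 bp, was the widest of any member by mean and in replicates 2 and 3 (Psme3 was wider in replicate 1), and fell in the top 10% of width of all genes in each library. It also lay within 2.5 kb of a start of Ss18l1, which is transcribed the other way from a start 76 bp from that of Psma7. Psma5 had 5.62, 9.48 and 7.30, below the median of all marked genes in replicates 1 and 3 and above it in replicate 2, and did not overlap with Psma7.

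Psma3 showed how the local background enters the fold. Its folds of 18.2, 17.5 and 18.2 were nearly equal, while its summits held 104, 76 and 110 fragments, more than those of Psma7 in each library. The local background was 2.47, 1.68 and 2.47 times the genome level, and the summit taken lay at 157, 410 and 156 bp from the TSS. Across members, the median local background was 1.28 times the genome level.

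In the beta ring, the structural subunit Psmb2 (ENSMUSG00000028837.8, chr4:126677630-126709714) was nearly as uniform as Psma3, with folds of 20.5, 20.3 and 21.2 and widths of 759, 668 and 692 bp. It also had a second peak inside the gene, over 2.5 kb from the start, in all 3 libraries, at folds of 3.35, 4.63 and 4.82. Psma6 was the only other member with such a distal peak in every library, at 4.87, 4.60 and 4.98.

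The constitutive cutting subunits differed from each other. Psmb7 (ENSMUSG00000026750.6, chr2:38588036-38644087), which carries the trypsin-like activity, had folds of 20.5, 17.2 and 14.4. Psmb5 (ENSMUSG00000022193.7, chr14:54614119-54618022), with the chymotrypsin-like activity, had folds of 11.2, 10.3 and 10.1, on 40 fragments in each library. Psmb6 (ENSMUSG00000018286.6, chr11:70525367-70527858), with the caspase-like activity, had 8.21, 6.47 and 10.4. Psmb7 was above the other two in every library, and Psmb5 and Psmb6 overlapped in their ranges.

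The base ATPases lay between 9.20 (Psmc5) and 17.6 (Psmc2) in mean fold. The summits of both lay upstream of the gene in all 3 libraries, inside the neighbours Ftsj3 and Dnajc2. Taking the closest peak instead lowered the mean fold of Psmc5 to 5.80 and left that of Psmc2 at 17.6. The width of the Psmc5 peak was 601, 614 and 1858 bp, since 1 continuous peak in replicate 3 replaced a pair of peaks in the others, so its mean of 1024 ± 722 bp (SD, n = 3) rests on that library. Without replicate 3 the widths were 601 and 614 bp. Psmc2, at 19.4, 15.9 and 17.5, had 3 peaks in the window in each library.

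The non-ATPases ranged from 6.32 (Psmd2) to 24.7 (Psmd14) in mean fold. Psmd14 (ENSMUSG00000026914.15, chr2:61711694-61800376), the deubiquitinase that removes the ubiquitin chain from the substrate, had the highest mean fold of all members, with 23.2, 24.1 and 26.7 on 71, 76 and 86 fragments. Its width was ordinary, at 829, 723 and 824 bp. Psmd11 followed among this class with 19.02, 19.4 and 23.2. Of the highest 3 members, Psma7 overlapped in range with both Psmd14 and Psmb2, while Psmd14 exceeded Psmb2 in every library.

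At the low end, Psmd2 (ENSMUSG00000006998.16, chr16:20651652-20663414), the scaffold subunit that receives ubiquitin shuttles, had folds of 5.80, 7.94 and 5.20 on only 16, 23 and 15 fragments (exact Poisson 95% intervals 9.15 to 26.0, 14.6 to 34.5 and 8.40 to 24.7). It also had the narrowest peak of all members, at 245, 279 and 243 bp. A pair of peaks lay in its window in each library, with the taller one downstream of the TSS in replicates 1 and 3 and upstream in replicate 2. Taking the closest peak instead lowered its mean fold from 6.32 to 4.75.

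Psmd8 was low at 8.06, 6.72 and 6.76, although 47, 42 and 43 fragments stood at its summit, close to the member median of 45. Its local background was 2.57, 2.67 and 2.67 times the genome level, the highest among members in each library. Psmd13 had folds of 6.995, 7.22 and 9.83 and was among the 3 narrowest of the members with a peak in all 3 libraries, at 388, 391 and 342 bp. Its peak was also within 2.5 kb of a start of Sirt3, a mitochondrial deacetylase gene on the other strand. The third of the narrowest was Psmc3ip, at 281, 312 and 323 bp and folds of 7.36, 8.69 and 8.54.

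The assembly chaperones, which help to build the base of the regulatory particle and leave it when it is complete, had a geometric mean fold of 8.03, 6.99 and 9.16, the lowest of the classes by role. The value of replicate 1 covers Psmd5 and Psmd9 alone, since Psmd10 had no peak there. Psmd9 (ENSMUSG00000029440.15) had 5.18, 5.48 and 7.62 on 19, 22 and 30 fragments. It was the lowest of all members by mean and in replicates 1 and 2, but in replicate 3 Psmd2, Psmd8, Psma5 and Psmd10 were lower. Psmd5 was higher, with 12.4, 11.2 and 13.4, and did not overlap with Psmd9 or Psmd10. For Psmd5 and Psmd9 the peak lay at a start internal to the GENCODE gene model, which is the RefSeq start of the gene. From that start the summits lay at -275, 180 and -557 bp (Psmd5) and 210, 223 and 202 bp (Psmd9). Neither gene had a peak within 2.5 kb of the 5′ end of its GENCODE model in any library.

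The activators had a geometric mean fold of 13.1, 14.4 and 17.6. This was the highest class level by the mean of the libraries and in replicates 2 and 3, while the base ATPases were higher in replicate 1, at 13.3. Psme3, the nuclear activator, had folds of 19.6, 17.1 and 21.2 and a peak of 1826, 1425 and 1697 bp, next to Psma7 in width. Psme4, which is known from acetylated histone turnover, had 17.96, 16.2 and 21.0. The interferon-responsive pair Psme1 and Psme2 was lower and more variable, with 10.0, 12.8 and 15.9 for Psme1 and 8.29, 12.1 and 13.5 for Psme2. Across classes the alpha ring, beta ring, base ATPases and non-ATPases had mean levels of 13.2 ± 1.03, 12.8 ± 0.506, 12.8 ± 0.503 and 12.2 ± 0.707 (geometric mean fold, SD, n = 3), and the values of these classes in the libraries overlapped.

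**Figure D2:**
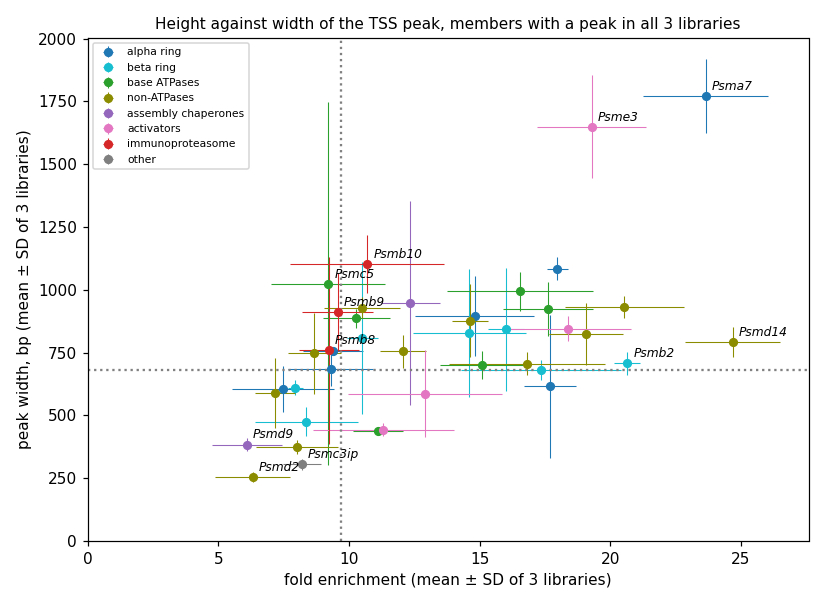
Mean width of the TSS peak in bp against mean fold enrichment for the 41 members with a peak in all 3 libraries, with SD over the libraries as bars and dotted lines at the medians of all protein-coding genes. Psma7 and Psme3 combine high fold with wide peaks, Psmd14 and Psmb2 are tall but of ordinary width, and the 3 immunoproteasome genes are wider than the median at a fold close to it.

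The order of members by fold was alike in the libraries. Spearman's rho across the 41 members was 0.859 for replicate 1 with replicate 2, 0.905 for replicate 1 with replicate 3, and 0.9002 for replicate 2 with replicate 3. For width it was 0.641, 0.685 and 0.573, lower than the 0.760, 0.773 and 0.784 over the 9471 genes marked in all 3 libraries. These are correlations across genes, which are not independent replicates, and the libraries share the genome's mappability and base composition. The coefficient of variation of fold over the libraries had a median of 12.2% for members and 15.4% for all these genes, with a range from 2.23% (Psma3) to 27.4% (Psmb10).

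Immunoproteasome genes were then compared with constitutive members. Psmb8 (ENSMUSG00000024338.15, chr17:34197721-34201454), the counterpart of Psmb5, had folds of 9.08, 8.18 and 10.4. Psmb9 (ENSMUSG00000096727.3, chr17:34181987-34187764), the counterpart of Psmb6, had 8.31, 9.40 and 11.01. Psmb10 (ENSMUSG00000031897.9, chr8:105935735-105938444), the counterpart of Psmb7, had 7.51, 11.3 and 13.3.

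Among all genes with a TSS peak, these folds stood on average at the percentiles 46.7, 48.8 and 55.0 for Psmb8, Psmb9 and Psmb10. The geometric mean fold of the 3 genes was 8.28, 9.53 and 11.5, against 12.5, 12.3 and 13.2 for the 31 constitutive members. The ratio was 0.664, 0.774 and 0.870, a mean of 0.769 ± 0.103 (SD, n = 3), below 1 in 3 of 3 libraries (the exact permutation of signs gave p = 0.25, adjusted 0.25). Immunoproteasome genes were not below every constitutive member. By mean fold, 8 constitutive members lay below all 3 of them, 5 lay between them and 18 lay above all 3.

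Against their direct counterparts the difference was less regular. Psmb10 had 0.367, 0.654 and 0.926 times the fold of Psmb7, below 1 in each library but over a range wider than that of the class ratio. Psmb8 had 0.813, 0.798 and 1.03 times the fold of Psmb5, and Psmb9 had 1.01, 1.45 and 1.06 times that of Psmb6. With the 3 pairs in place of all constitutive members, the ratio was 0.671, 0.912 and 1.00 (mean 0.862, with p = 0.5 by exact permutation of signs).

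The immunoproteasome genes were marked over a wider stretch than the constitutive members as a set. Their highest peaks had a geometric mean width of 1024, 725 and 907 bp, against 713, 705 and 757 bp at constitutive members. The ratio was 1.44, 1.03 and 1.198, a mean of 1.22 ± 0.205 (SD, n = 3). The exact permutation of signs gave p = 0.25 (adjusted 0.25). Summed over all peaks in the window the widths were 1223, 1390 and 1320 bp against 826, 909 and 914 bp, with ratios of 1.48, 1.53 and 1.44. For Psmb9 the sum includes a peak inside the neighbouring gene Tap1, of 726, 808 and 665 bp. For Psmb8 in replicate 2 it includes a peak of 200 bp inside Tap1. The summed ratio was not tested without such peaks. The low value in replicate 2 came with a split of the Psmb8 peak. Its width was 890, 339 and 1047 bp in the 3 libraries, with 1, 4 and 2 peaks in the window. By highest peak, single classes were wider than the immunoproteasome genes in replicate 2 (alpha ring 740, base ATPases 760 and activators 807 bp). In replicate 3 the alpha ring was wider (934 bp), and in replicate 1 no other class was.

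Psmb10 was among the 3 widest members by mean, at 1171, 1166 and 968 bp, all in 1 peak, and was 1.62, 1.81 and 1.43 times as wide as Psmb7. The highest peak of Psmb9 was 2.39, 1.79 and 1.63 times as wide as that of Psmb6. Its summed peaks, with the one inside Tap1, came to 1757, 1774 and 1873 bp, or 4.07, 3.29 and 4.13 times those of Psmb6. For Psmb8 against Psmb5 the ratio was 1.94, 0.356 and 1.03 for the highest peak, with no shared direction, and 1.08, 1.36 and 1.25 for the summed peaks. Leaving out genes whose peak is shared with a neighbour, which removes Psmb9, gave a width ratio of 1.49, 0.874 and 1.38, so replicate 2 then lay below 1.

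**Figure D3:**
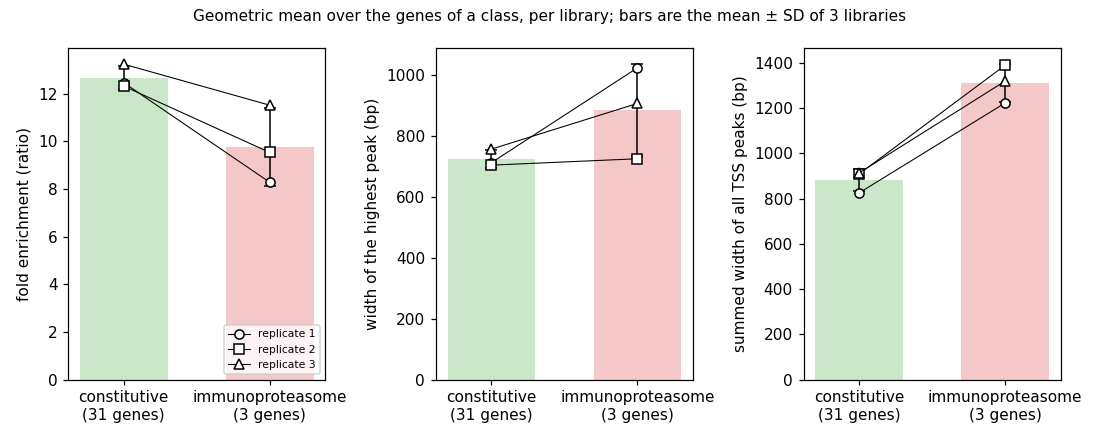
Geometric mean of fold enrichment, of the width of the highest peak and of the summed width of all TSS peaks for 31 constitutive and 3 immunoproteasome genes, with lines joining the classes within a library and bars for the mean ± SD of 3 libraries. The fold falls and the summed width rises from constitutive to immunoproteasome genes in 3 of 3 libraries. The summed width of Psmb9 includes a peak inside its neighbour Tap1.

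Psmb9 and Psmb8 lie in the class II region of the major histocompatibility complex with Tap1 and Tap2, which encode the transporter that carries proteasome products to class I molecules. Over the 34.3 kb from the end of Psmb9 to the end of Tap2 (chr17:34181987-34216321) there were 5, 8 and 6 peaks, which covered 11.6%, 11.4% and 13.2% of it. A peak on each side of the start that Psmb9 and Tap1 share was present in all 3 libraries. The one inside Psmb9 was the taller, with folds of 8.31, 9.40 and 11.01, and the one inside Tap1 had 5.10, 5.91 and 7.96. Since both genes start within 38 bp of each other, neither peak can be given to 1 gene. Psmb8 had its own peak, and the peak of Tap2 was lower, at 6.19, 6.43 and 7.49.

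**Figure D4:**
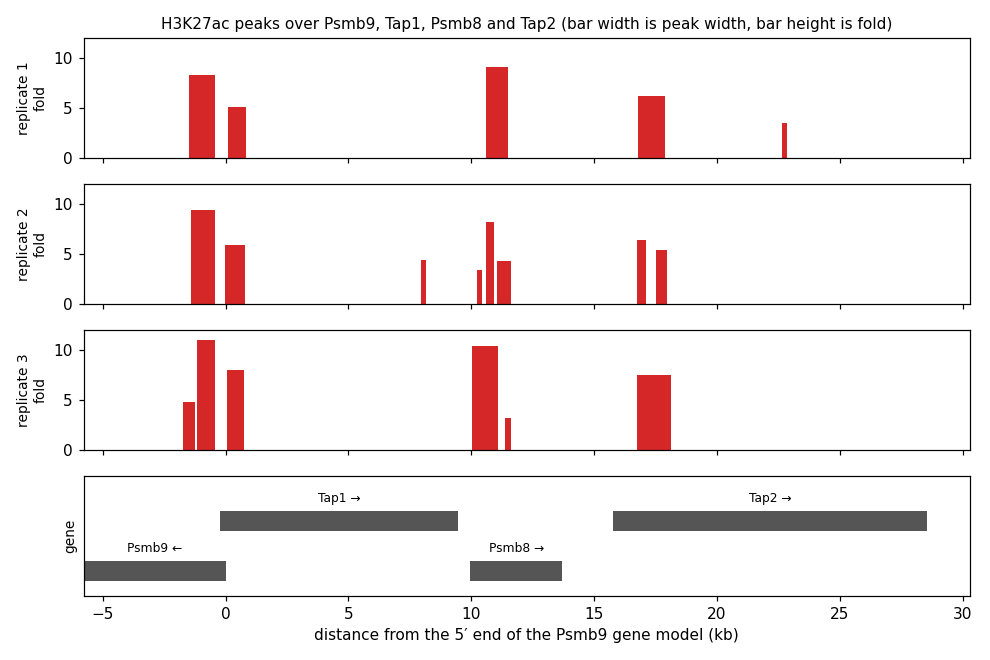
H3K27ac peaks in each library over Psmb9, Tap1, Psmb8 and Tap2, with distance from the 5′ end of the Psmb9 gene model in kb across, fold enrichment as bar height and peak width as bar width. Peaks flank the shared start of Psmb9 and Tap1 and lie inside Psmb8 and Tap2 in each of the 3 libraries.

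The summits of member peaks lay mostly inside the genes. Of 125 highest summits, 74 were in an intron, 23 in a coding exon, 12 in an untranslated part of an exon and 16 upstream of the gene. Summits were downstream of the closest TSS at 85.4%, 78.6% and 81.0% of members, against 74.2%, 74.8% and 74.2% of all genes. At 31 members they were downstream in all 3 libraries, and at 5 (Psmc2, Psmc5, Psme2, Psme4 and Psmc3ip) upstream in all 3. The Psme4 summits lay inside the gene, and were downstream of its RefSeq start, at 311, 333 and 392 bp. The median distance from the TSS was 197, 219 and 208 bp at constitutive members and 206, 206 and 202 bp over all genes.

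At immunoproteasome genes the median distance was 555, 530 and 469 bp, which is the value of Psmb10. For Psmb8 it was 733, 705 and 686 bp, and for Psmb9 72, 56 and 72 bp. These distances depend on which start is annotated. Measured from the RefSeq starts, Psmb8 summits lay at 328, 300 and 281 bp, Psmb9 summits at 183, 167 and 183 bp and Psmb10 summits at 503, 478 and 417 bp, against a median of 217, 235 and 216 bp over 25 constitutive members. Psmb10 was the immunoproteasome gene whose summit lay far inside the gene by both annotations. The constitutive Psma5 also did, at 550, 508 and 547 bp by both. By GENCODE, 4 constitutive members including Psma5 reached over 400 bp in at least 1 library, Psmc5 and Psmb1 among them upstream of the TSS.

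**Figure D5:**
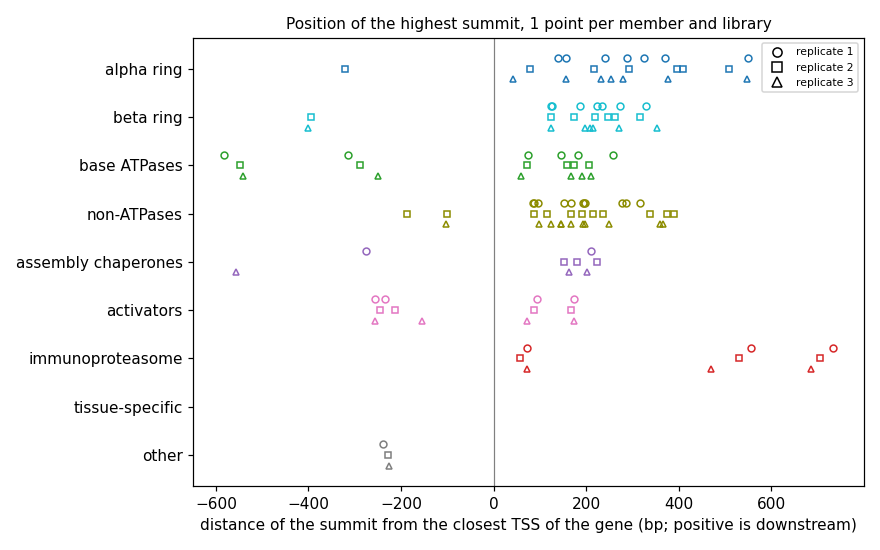
Distance in bp of the highest H3K27ac summit from the closest annotated TSS for each member and library, by class, with positive values downstream of the TSS. Most points lie between 0 and 400 bp, Psmb8 and Psmb10 lie at 469 to 733 bp, Psma5 at 508 to 550 bp, and Psmb9 at 56 to 72 bp.

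At 10 members the peak also lay within 2.5 kb of a start of another protein-coding gene, a share of 21.95%, 23.8% and 23.8% of members with a peak against 26.2%, 26.1% and 26.1% of all genes. In all 10 the neighbour ran in the opposite direction. The pairs were Psma2 with Mrpl32, Psma4 with AY074887, Psma7 with Ss18l1, Psmb1 with Tbp, Psmb9 with Tap1, Psmc2 with Dnajc2, Psmc5 with Ftsj3, Psmd10 with Atg4a, Psmd13 with Sirt3 and Psme2 with Rnf31. Their closest starts were 32 bp (Psmc2 and Dnajc2) to 595 bp (Psme2 and Rnf31) apart. The mark at these promoters cannot be given to 1 gene of the pair. Tbp encodes the TATA-binding protein, and the highest summit at Psmb1 lay on the Psmb1 side in replicate 1 and on the Tbp side in replicates 2 and 3.

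RefSeq promoters, from 250 bases before to 50 bases after a start, were matched for 38 of 45 members and 41 starts. The ETS motif CCGGAAG, read on both strands, was in 14 of 41 member promoters (34.1%), and in 11 of 27 constitutive ones (40.7%), against 8.86% of all 32851 promoters and 20.6% of the 9636 promoters of genes with a TSS peak in all 3 libraries. It was in 0 of 3 immunoproteasome promoters. The match was at position -11 in Psmd11 and -26 in Psmd2, counted back from -1 at the base before the start, so it was found at members of both high and low fold. Psmd14, the tallest, had none.

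The antioxidant response element TGACNNNGC was in 6 member promoters (14.6%), close to its share in all promoters (12.4%) and in those of marked genes (14.7%). The matches were in Psmb5 at -47, Psmb6 at -9, Psmd9 at -31, Psme4 at -7, Psmc6 at -227 and Psmd12 at -247. The interferon regulatory factor element GAAANNGAA was in 6 member promoters (14.6%, against 8.56% of all and 6.90% of those of marked genes). These were Psmb3 at -162, Psmb4 at -3, Psmc2 at -8, Psmd4 at -79, Psmd9 at -159 and Psme1 at 11. It was thus in 4 of 27 constitutive promoters (14.8%) and in 0 of 3 immunoproteasome promoters, and Psme2 had none. The CCAAT box was in 36.6% of member promoters, 37.4% of all and 37.6% of those of marked genes. The YY1 motif AAGATGGCG was in 2 member promoters (4.88%, against 1.40% of all and 3.62% of those of marked genes). The nuclear respiratory factor 1 motif GCGCATGCG, whose letters overlap their own reverse complement, was in 1 (2.44%, against 1.75% of all and 4.27% of those of marked genes). The TATA box TATAAA was in 4 (9.76%, against 13.6% of all and 6.38% of those of marked genes). A match gives letters only, and a window without one says nothing of a factor's binding.

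Promoters of the classes differed in median CpG content, and their values overlapped. The ratio of observed to expected CpG had a median of 0.799 in constitutive promoters and 0.791 in those of all genes marked in the 3 libraries. For the immunoproteasome genes it was 0.523 in Psmb8, 0.60 in Psmb9 and 0.192 in Psmb10, and 23 of 27 constitutive promoters exceeded all 3. The median over promoters of all protein-coding genes was 0.588. Values from 0.456 to 0.589 were also found at Psme1, Psme2, Psmd9 and Psmd10. The constitutive Psma3, Psmb4 and Psmd4 lay in that range too, at 0.55, 0.544 and 0.508. Psme3, Psme4 and Psmd5 had 0.728, 0.781 and 0.864. The lowest values among members were 0.0904 in Psme2b and 0.165 in Psmb11, both without a peak. Next came 0.185 at the upstream of 2 Psma6 starts and 0.192 in Psmb10. That Psma6 start had a peak within 2.5 kb in only 1 library. The highest Psma6 peak lay at the other start, where the ratio was 0.697. The printed Psmb10 sequence stands beside a peak of 968 to 1171 bp in each library.

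Genes that work with the proteasome were also widely marked. Of 30 such genes, 29 had a TSS peak in all 3 libraries, where the share of all genes was 43.3%. All 5 assembly genes and 6 of 6 further components and partners were marked. So were 6 of 6 shuttle and segregase genes. The same held for 5 of 5 genes listed under transcription and nuclear import (Nfe2l1, Nfe2l2, Ddi2, Ngly1 and Akirin2). Over all 30 genes the median of mean folds was 13.04, with Adrm1, a ubiquitin receptor of the regulatory particle, the highest at 27.1, 27.9 and 28.6. Usp14, a deubiquitinase on the particle, had 26.6, 25.8 and 26.0. Nfe2l2 and Nfe2l1, which encode factors that bind antioxidant response elements, had 25.2, 21.1 and 28.3 and 17.1, 15.6 and 15.7.

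Of 8 genes of antigen processing and the interferon response, 7 were marked in all 3 libraries, with a median of mean folds of 11.4. Irf1, which encodes a factor that activates immunoproteasome genes, had folds of 13.7, 11 and 16.7. B2m, the light chain of class I molecules, had 10.8, 11.8 and 11.9. The exception was Nlrc5, the class I transactivator, with 5.81 and 4.69 in replicates 1 and 2 and no TSS peak in replicate 3.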

How the data were processed

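H3K27ac ChIP-seq peak lists of 3 BcorΔE9-10 KL libraries were used. Per the labels and the methods of the study, the authors used Bowtie2 for alignment to GRCm38, dropped duplicate reads and ran MACS2 (2.1.1) on each library without pooling. The deposited lists give, per summit, a fold enrichment (a ratio to local background), a −log10 p-value, a −log10 q-value and a score equal to 10 times the −log10 q, which was not used further. The control and caller settings were not given in the sources used here. Fold enrichments below are the authors' values and are not scaled between libraries.

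Rows repeating an interval were merged to 1 peak of highest fold. Peaks were joined to GENCODE M21 starts of protein-coding transcripts within 2.5 kb. Fragments at a summit and the local background were solved from fold and p (100% of rows solved within 0.003 on −log10 p, with a treatment scale of 0.9826 in replicate 3). Fragment intervals are exact Poisson and cover counting error only. The 4 ratios were tested by an exact two-sided permutation of the signs of their log2 values over 3 libraries. Shares and medians of members are descriptions. The members, lists and motifs were chosen with earlier results of these data known. Named in full were the immunoproteasome and tissue-specific genes, Psmb5 to Psmb7, the 3 highest and lowest by fold, the 3 widest and narrowest, members lacking a peak in a library, and neighbours sharing a peak; other members were named for class ranges or after their values were seen. Printed sequence stops before annotated exons. Python 3.11.15, pandas 2.3.3 and scipy 1.17.1 were used, and scripts were tested on simulated data. Alternatives covered the q threshold, the window, the TSS set, the choice of peak, the measure of height and width, shared promoters and left-out libraries. The values of 1 gene of the antigen processing and interferon list, counted with its list, are not reported here.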

Additional observations from a re-analysis of the deposited data

How the results depend on the processing

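The count of members with a TSS peak in all 3 libraries lay between 38 (5′ ends of gene models only) and 42 under every alternative run, and from 41 to 42 with 1 library left out. The number of tissue-specific genes with a peak in any library rose from 0 to 1 with a 5 kb window, through the Psmb5 peak near Psmb11, and was 0 under the others. With 1 library left out, the fold ratio of members to all genes was 1.25 to 1.27, their width ratio 1.05 to 1.11, the fold ratio of immunoproteasome to constitutive members 0.719 to 0.822 and their width ratio 1.11 to 1.32, where the smallest p is 0.5. The means of these 4 ratios kept their direction under all other alternatives, with 1 exception. The width ratio of members to all genes was 0.951 (from 1.09) with the summed width of all peaks in the window. The cause was not tested. With only peaks of a −log10 q of at least 5, that width ratio was 1.08, 0.974 and 1.01, so replicate 2 fell below 1. The fold ratio of members to all genes then had a mean of 1.17. No test could pass 0.05 with 3 libraries. Of single members' values, 4 of 168 folds and 17 of 168 widths moved by more than 1 SD. The alternative without Psmc3ip and Psme2b was chosen after seeing the data. No paired analysis was possible because the libraries form only 1 group. Summits held 15 to 110 fragments, which limits single folds of low members most.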
